A study of Bos indicus with 12 samples.

Results

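The 37 shortest gene identifiers in a blood RNA count table of dairy cows are described here. They were chosen by a rule that uses no measured value, namely a gene identifier of fewer than 9 digits. The rule finds 37 of the 26229 rows, 13 with 7 digits and 24 with 8 digits, and every other row has 9 digits. RNA was sequenced from 12 female Bos indicus cows, 1 library a cow, in 4 groups of 3: high-yielding Gir, low-yielding Gir, high-yielding Shweta Kapila and low-yielding Shweta Kapila. Cows were in the second or the third lactation, and yield class was set inside each breed from lactation records, per the labels. Gir is a zebu dairy breed, and both are treated as indigenous breeds. The labels name peripheral blood mononuclear cells and also a whole blood RNA kit, and the libraries were depleted of ribosomal RNA and kept strand. No yield in litres and no age is stated for any cow in the labels.

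A mammalian mitochondrial genome is a small circle that holds 37 genes, of which 13 encode proteins and 24 encode the transfer and ribosomal RNAs of the organelle. It is copied into long transcripts from both strands, which are then cut into single messenger, transfer and ribosomal RNAs. All 13 proteins are subunits of the respiratory chain or of ATP synthase, and they work in complexes whose other subunits come from nuclear genes; complex II is wholly nuclear. In blood, lymphocytes, monocytes and platelets carry mitochondria, mature neutrophils carry few, and mature red cells carry none.

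The number of short identifiers and their split into 13 and 24 are those of a mitochondrial genome, and the 37 stand in 1 unbroken run of consecutive rows of the table. None of the 37 matched the RefSeq gene table, in which 22754 identifiers (86.8%) found a match and which holds 0 rows on a mitochondrial chromosome. No gene name, role, length or sequence could therefore be given to any single identifier, and whether they are the mitochondrial genes was not tested. Levels are given as CPM, the count of an identifier scaled to a fixed library total. Since lengths are not known, the order of identifiers below is an order of counts, not of RNA molecules.

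The 2 classes differed widely in level. All 13 of the 7-digit identifiers had over 1000 counts in every library. Of them 12 were among the 100 rows of highest mean CPM of the whole table, and the lowest stood at rank 307. Identifier 2885981 was the single most abundant row of the table in each of the 12 libraries. The 24 of the 8-digit class ran from 5247 CPM to nothing. Identifiers 64986612 and 64986610 averaged 2291 and 662 CPM over the 12 libraries and held 97.8% of the counts of their class. Identifier 64986623 averaged 65.1 CPM and 64986603 ran from 0.560 to 4.00 CPM. The other 20 never passed 6 counts in any library, and 4 of these had 0 counts in all 12, which allows at most 0.110 CPM in the deepest and 0.211 CPM in the shallowest library (3 counts; counting error only). The 13 of the 7-digit class held 96.0% of all counts on the 37. Every 7-digit value was a fractional estimate (100% of 156 values not whole, tolerance 1e-06), as were 99.8% of the 9-digit values of at least 3154 counts.

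Across cows the 37 identifiers took between 4.54% and 13.1% of a library. In high-yielding Gir the share was 7.16%, 6.72% and 8.22% in cows 1 to 3. In low-yielding Gir it was 6.27%, 6.20% and 8.70%. These 2 groups overlapped over most of their range. In high-yielding Shweta Kapila the share was 4.54%, 4.72% and 9.00%. In low-yielding Shweta Kapila it was 13.1%, 11.7% and 5.57%. Both the lowest and the highest shares of the 12 cows thus lay in Shweta Kapila, and in each of its yield classes cow 3 stood among the values of the other class. The highest share was 2.88 times the lowest in Shweta Kapila and 1.40 times the lowest in Gir. Counting error is small beside this, since the 95% Wilson intervals of these shares reach at most 0.0132 percentage points to either side (reads are not independent molecules, so they cover counting error only).

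**Figure D1:**
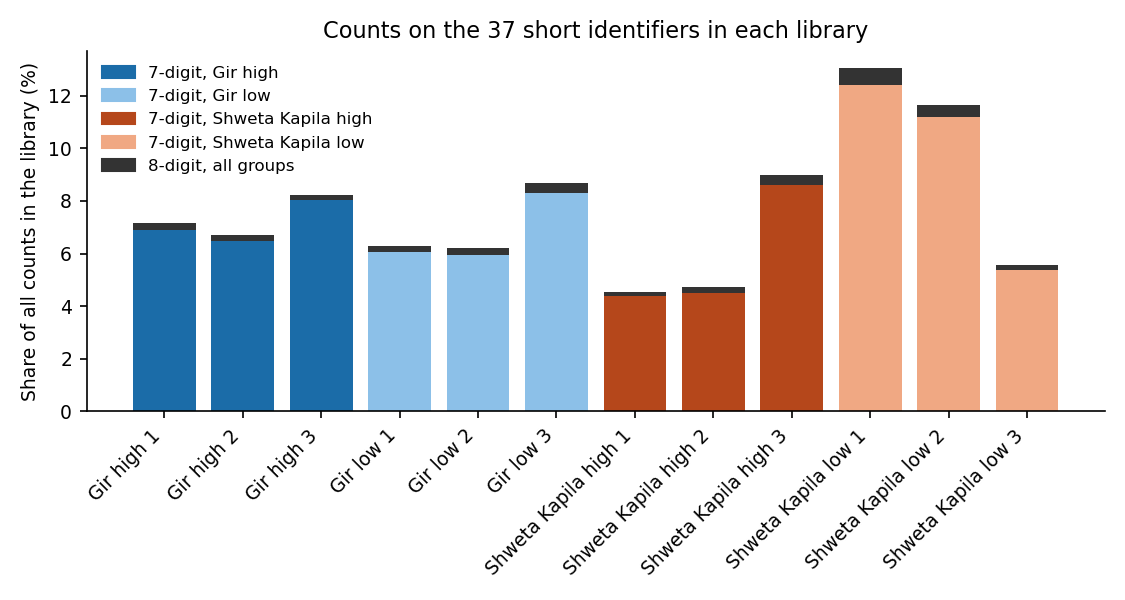
Share of all counts of a library that fell on the 37 short identifiers (vertical axis, %), 1 bar per cow; the coloured part is the 7-digit class, the black part the 8-digit class. Gir cows lie between 6.20% and 8.70%, Shweta Kapila cows between 4.54% and 13.1%.

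No difference of the share between yield classes or breeds passed its test against the spread between cows. Mean shares were 7.37 ± 0.772% in high-yielding and 7.06 ± 1.42% in low-yielding Gir, and 6.09 ± 2.52% in high-yielding and 10.1 ± 3.98% in low-yielding Shweta Kapila (SD, n = 3 each). The yield difference was 0.312 percentage points in Gir (2-sided exact permutation p = 0.7) and −4.01 in Shweta Kapila (exact permutation p = 0.2), where 3 cows against 3 cannot go below 0.1. Averaged over the breeds it was −1.85 (exact permutation p = 0.24). The yield difference in Gir less that in Shweta Kapila, with their signs, was 4.32 points (exact permutation p = 0.17). Gir minus Shweta Kapila was −0.880 (exact permutation p = 0.569). Adjusted over these 5 tests the p-values ran from 0.4 to 0.7. Each library is a separate cow by its label, so these p-values measure spread between cows. In a bulk sample, fewer cells of a type and less RNA per cell cannot be told apart.

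Library size moved with the share. The 3 libraries of over 22 M counts, which are Shweta Kapila high 3, low 1 and low 2, were also the 3 with the highest share of the 12 cows. Over the 12 cows the log2 ratio of counts on the 37 to all other counts correlated with the log2 of those other counts (Pearson r = 0.704 with a permutation p of 0.0108, or 0.0342 after adjustment over 19 relations). Spearman's rho was 0.741 (permutation p of 0.00763, adjusted to 0.029), and r was 0.600 once the 2 farthest libraries were left out. Among the Gir cows r was 0.710 (exact permutation p = 0.117) and among the Shweta Kapila cows 0.810 (exact permutation p = 0.0903), and without the 3 libraries r was 0.359 (exact permutation p = 0.35). Without them the breed difference turned to 2.27 percentage points higher in Gir, and Gir high 3 and Gir low 3 were the 2 highest that remained. Leaving out these 3 was chosen after seeing the data. It removes the highest shares, all from Shweta Kapila, so the difference without them cannot test the breeds. The part of library size in the share was not tested.

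Of the 37 identifiers, 17 passed the filter on low counts and entered the gene test, namely all 13 of 7 digits and 4 of 8 digits. Identifier 2885981 stood at 24336, 23803 and 28845 CPM in high-yielding Gir and at 22929, 20526 and 30068 CPM in low-yielding Gir. In high-yielding Shweta Kapila it stood at 12545, 13984 and 27258 CPM and in low-yielding Shweta Kapila at 40775, 38610 and 18153 CPM. The Gir groups overlapped, and in Shweta Kapila cow 3 of each class again lay among the other class. Identifier 2885970 ran from 4432 CPM in Shweta Kapila high 1 to 15081 CPM in Shweta Kapila low 1. Identifiers 2885974 and 2885973 ran from 4176 to 9840 CPM and from 3698 to 11990 CPM, each lowest in Shweta Kapila high 2. In 10 of the 13 7-digit identifiers the 3 libraries of over 22 M counts were the 3 highest of the 12, and in 10 of the 13 Shweta Kapila low 1 was the highest of all.

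**Figure D2:**
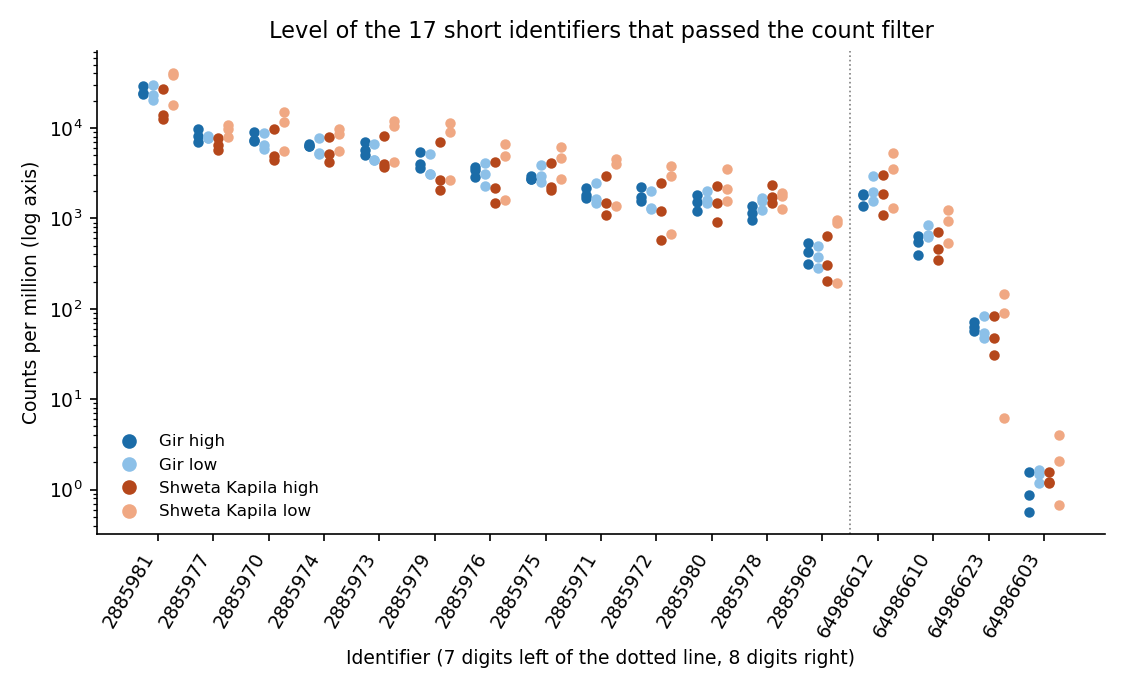
Level of the 17 identifiers that passed the filter (vertical axis, CPM on a log scale), 1 point per cow, coloured by group, in order of mean level inside each class. The 7-digit identifiers lie between 191 and 40775 CPM, and each spans a wider fold among Shweta Kapila cows than among Gir cows.

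Each 7-digit identifier varied more among the 6 Shweta Kapila cows than among the 6 Gir cows (13 of 13). The highest level was 1.39 to 1.88 times the lowest in Gir (median 1.65) and 1.86 to 6.47 times in Shweta Kapila (median 3.40). The widest was 2885972, from 582 CPM in Shweta Kapila high 1 and 671 in low 3 to 3764 in low 1. The narrowest was 2885977, from 5735 to 10646 CPM. For 2885978 the breeds were nearly equal, at 1.78 times in Gir and 1.86 times in Shweta Kapila. The 13 are not separate observations, since most of them moved together from cow to cow. How many of all genes varied more in Shweta Kapila was not counted.

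edgeR's quasi-likelihood test called 0 of the 17 identifiers in any of the 5 comparisons at a false discovery rate of 0.05, where it called 0% of the 15420 genes tested. In Gir, 11 of the 17 were fitted higher and 6 lower with high yield, with a median log2 fold change of 0.10 beside −0.02 over all genes. Of the 17, 0 had an unadjusted p under 0.05, beside 291 of the 15420 genes. The lowest p on the higher side was that of 2885973 (log2 fold change 0.23 ± 0.44, SE; edgeR adjusted p = 1). On the lower side it was that of 2885978 (−0.35 ± 0.26; edgeR adjusted p = 1).

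In Shweta Kapila 16 of the 17 were fitted lower with high yield and 1 higher, with a median log2 fold change of −0.85 beside −0.02 over all genes. Fitted values ran from −1.07 to 0.16, and 3 had an unadjusted p under 0.05, beside 1077 of the 15420 genes tested. The lowest p was that of the 8-digit 64986610, at 457, 348 and 711 CPM in high-yielding and 944, 1251 and 530 CPM in low-yielding animals (log2 fold change −0.91 ± 0.37, SE; edgeR adjusted p = 0.655). High 3 and low 3 overlap the other class here too. Identifier 2885981 was at −0.94 ± 0.39 and 2885977 at −0.55 ± 0.25 (edgeR adjusted p = 0.655 for each). Identifier 2885977, at 6550, 5735 and 7726 CPM with high and 9716, 10646 and 7889 CPM with low yield, was the 1 of 17 whose yield classes did not overlap, beside 6.7% of all genes tested. The 1 fitted on the higher side was 2885978 (0.16 ± 0.26; edgeR adjusted p = 0.822), which turned to −0.10 without Shweta Kapila high 1.

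These fitted values moved with the cows left out. Without Shweta Kapila low 3 the median of the 17 was −1.27. Of the 17, 16 then had an unadjusted p under 0.05, beside 4998 of the 15755 genes tested. Without high 3 the median was −1.29 and 14 had one, beside 2962 of 15759 genes. edgeR called 0 of the 17 in both cases. Without Shweta Kapila low 1 the median was −0.42 and 0 had one, beside 826 of 15753 genes.

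In Shweta Kapila DESeq2 gave the same count of identifiers called as edgeR, and limma-voom a different one. DESeq2 called 0 of the 17 there and in the other 4 comparisons, beside 0.396% of all genes in Shweta Kapila and 0.00649% in Gir. limma-voom with sample quality weights called 13 of the 17 lower with high yield, beside 9.71% of all genes called lower and 25.3% called in either direction. Its weights ran from 0.184 for Shweta Kapila low 3 to 6.62 for low 2, and low 1 had 0.575. With it 64986610 was at −1.65 ± 0.26 and 2885981 at −1.42 ± 0.25 (limma adjusted p = 0.00507 and 0.00564). The 4 not called by it were 2885978, 2885980, 64986623 and 64986603. In Gir limma-voom called 0 of the 17, beside 0.00649% of all genes.

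Over both breeds all 17 were fitted lower with high yield, from −0.68 to −0.09 (median −0.38 beside −0.01 over all genes). Of the 17, 1 had an unadjusted p under 0.05, beside 637 of the 15420 genes tested. This 1 identifier was 64986610, at −0.66 ± 0.26 (edgeR adjusted p = 0.874). The yield difference in Gir less that in Shweta Kapila was positive for 16 and negative for 1 (median 0.80 beside 0.01 over all genes). Here 0 had an unadjusted p under 0.05, beside 587 of the 15420 genes tested. Identifier 2885981 had the lowest p on the positive side of this difference (1.04 ± 0.55, edgeR adjusted p = 0.955). Identifier 2885978 was alone on the negative side (−0.51 ± 0.37, edgeR adjusted p = 0.955). DESeq2 called 0 of the 17 in these 2 comparisons, beside 0.0259% and 0.0584% of all genes. limma-voom called 4 of them lower with high yield over both breeds, beside 2.56% of all genes called lower and 8.36% in either direction. It called 10 with a positive difference between breeds, beside 3.13% of all genes on that side and 8.57% in either direction. In Gir and over both breeds 0 of the 17 had yield classes that did not overlap in CPM, beside 10.5% and 0.0778% of all genes.

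Between breeds all 17 were fitted lower in Gir than in Shweta Kapila, from −0.64 to −0.04 (median −0.36 beside −0.04 over all genes). The lowest p was that of 2885978 (log2 fold change −0.50 ± 0.19 SE, edgeR adjusted p = 0.428). Of the 17 it alone had an unadjusted p under 0.05, beside 1476 of the 15420 genes tested. It stood at 1368, 1142 and 948 CPM in high-yielding Gir and at 1690, 1240 and 1558 CPM in low-yielding Gir. In Shweta Kapila it stood at 2358, 1487 and 1744 CPM in high-yielding and at 1265, 1926 and 1754 CPM in low-yielding animals. The breeds overlapped, as they did for all 17 (0 without overlap, beside 0.7% of all genes). limma-voom called this 1 identifier (−0.52 ± 0.14, limma adjusted p = 0.0294), beside 7.17% of all genes called lower and 16.7% in either direction, and DESeq2 called 0, beside 1.26%. The direction turned with the log2 total count as a covariate, under which 15 of the 17 were fitted higher in Gir and 2 lower (median 0.11; 0 called). It also turned when those 3 largest libraries, which hold the highest shares and are all Shweta Kapila, were left out. There 16 were fitted higher (median 0.47). Low-yielding Shweta Kapila is then 1 cow, low 3, which is assumed to vary like the other groups. The 1 identifier called in that fit was 64986623 (2.02 ± 0.25 higher in Gir, edgeR adjusted p = 0.0205), and that call rests on low 3, at 6.22 CPM against 30.9 and 47.6 CPM in the Shweta Kapila high 1 and 2 that remain and 48.0 to 83.2 CPM in Gir.

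**Figure D3:**
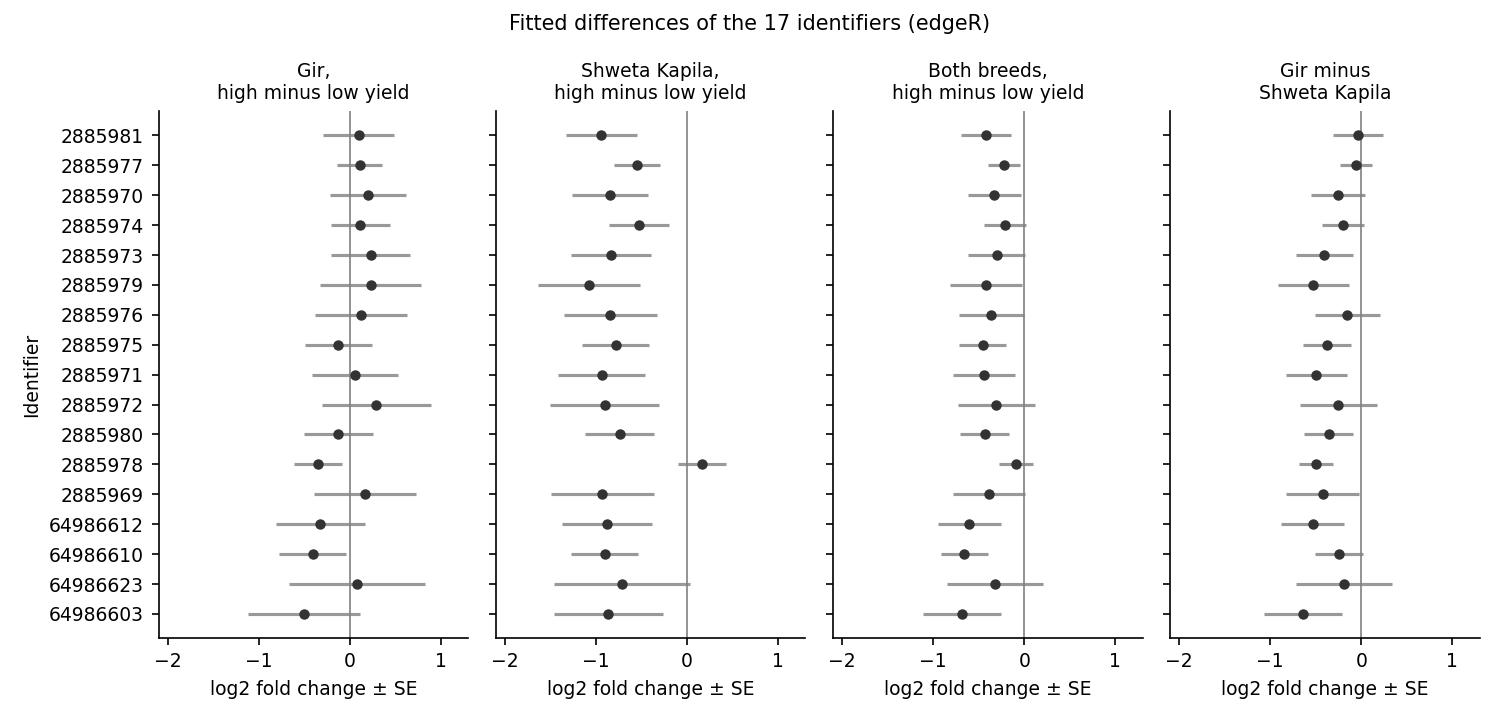
Fitted log2 fold change with its standard error (horizontal axis) for the 17 identifiers (vertical axis) in 4 comparisons from the edgeR fit over 12 cows. In Shweta Kapila 16 of 17 lie below 0 and 2885978 lies at 0.16; the values in Gir run from −0.50 to 0.29.

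Most of the 17 moved together from cow to cow. Each was compared with the sum of the other 36, both per count outside the 37, over the 12 cows. Pearson r was above 0.9 for 10 of the 13 7-digit identifiers and highest for 2885970 (r = 0.991 with a permutation p of 1e-05, the smallest the 100000 permutations can give, or 2.43e-05 after adjustment over 17 relations; rho = 0.986 with a permutation p of 1e-05). For 2885981 r was 0.95 (permutation p of 1e-05, adjusted to 2.43e-05; rho of 0.972 with a permutation p of 3e-05), with 0.942 within Gir (exact permutation p = 0.00694) and 0.989 within Shweta Kapila (exact permutation p = 0.00139). Identifier 64986603 did not pass (r = 0.500, permutation p of 0.0971, adjusted to 0.103). Within Gir some others followed the rest weakly, with r of 0.0325 for 64986610, 0.185 for 2885980 and 0.355 for 64986612. The pairs share the denominator and the library.

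Identifier 2885978 stood apart. Its r with the other 36 was −0.136 (permutation p of 0.673, also after adjustment; rho of −0.119 with a permutation p of 0.716), −0.160 within Gir (exact permutation p = 0.735), −0.273 within Shweta Kapila (exact permutation p = 0.556) and −0.403 without the 2 farthest libraries. As a share of the counts on the 37 it ran from 5.19% in Shweta Kapila high 1, the cow with the lowest total share, to 0.969% in Shweta Kapila low 1, the cow with the highest. Identifier 2885977 had the same tendency in a weaker form, at 14.4% and 7.44% of the 37 in those 2 cows, though its level correlated with the other 36 (r = 0.872, permutation p of 0.00036, adjusted to 0.00051; rho = 0.867, permutation p of 0.00055). Identifier 2885979 ran the other way, at 4.53% and 8.63%.

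By group mean the leading identifier made up a larger part of the 37 in Gir, though the breeds overlapped. Identifier 2885981 held 34.8 ± 0.748% of their counts in high-yielding and 34.7 ± 1.73% in low-yielding Gir (SD, n = 3 each). In Shweta Kapila it held 29.2 ± 1.39% in high-yielding and 32.3 ± 0.977% in low-yielding animals. Gir cows ran from 33.1% to 36.6% and Shweta Kapila cows from 27.6% to 33.1%. Gir low 2, at 33.110%, lay just below Shweta Kapila low 2, at 33.112%. No test was run on these shares.

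The 8-digit class held between 2.29 and 5.10 counts per 100 counts of the 7-digit class. The lowest ratio was that of Gir high 3, where 64986612 and 64986610 stood at 1.68% and 0.478% of the 37. Mean log2 ratios were −4.98 ± 0.409 in high-yielding and −4.55 ± 0.160 in low-yielding Gir, and −4.54 ± 0.239 and −4.56 ± 0.286 in Shweta Kapila (SD, n = 3 each). The yield difference was −0.43 in Gir and 0.02 in Shweta Kapila (2-sided exact permutation p = 0.2 and 0.9), and the breed difference was −0.21 (exact permutation p = 0.275). Without Gir high 3 they were −0.19 in Gir and −0.08 between breeds.

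Shweta Kapila low 3 almost lacked 1 member. Identifier 64986623 had 103 counts (6.22 CPM, 0.0112% of the 37) in that library, against 529 to 3765 counts (30.9 to 146 CPM) in the other 11. In that cow 2885981 stood at 18153 CPM and 64986612 at 1314 CPM, both inside the range of the other 11. Identifier 2885969 was at its lowest there too, at 191 CPM against 204 CPM in Shweta Kapila high 1.

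**Figure D4:**
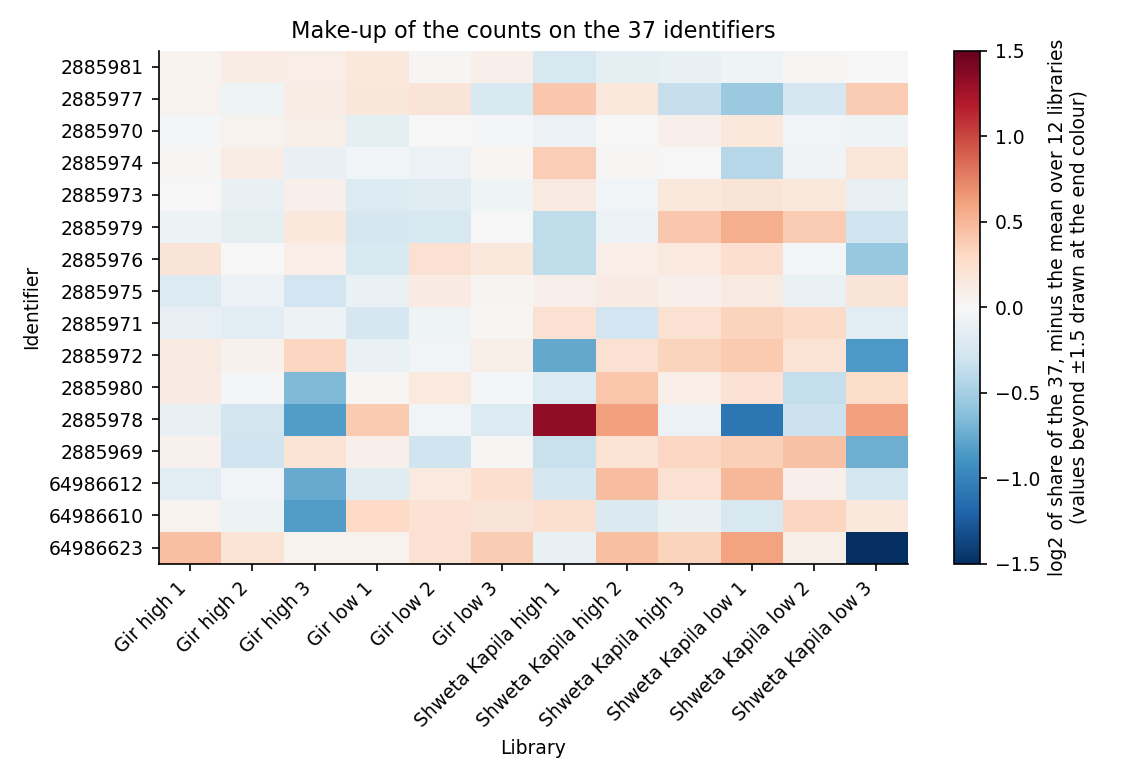
Make-up of the counts on the 37, as the log2 of each identifier's share of the 37 minus its mean over 12 libraries (colour), for the 16 most abundant by class (vertical axis) in each library (horizontal axis). Row 2885978 changes most among the 7-digit identifiers, from 5.19% in Shweta Kapila high 1 to 0.969% in Shweta Kapila low 1, and 64986623 is at 0.0112% in Shweta Kapila low 3.

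Lists of nuclear genes of complexes I, III, IV and V ran opposite to the 37 identifiers from cow to cow, as did many other genes. The measure was the mean log2(CPM + 1) of a list, with CPM taken over counts outside the 37, against the log2 ratio of the 37 to all other counts, over 12 cows, with p-values adjusted over 19 relations. For complex III, 9 of 9 genes measured, r was −0.960 (permutation p of 1e-05, adjusted to 0.00019) and rho −0.979 (permutation p of 2e-05). Complex I is the NADH dehydrogenase; with 32 of 37 genes measured, r was −0.939 (permutation p of 2e-05, adjusted to 0.00019) and rho −0.951 (permutation p of 3e-05). For ATP synthase, or complex V, with 16 of 17 genes, r was −0.916 (permutation p of 4e-05, adjusted to 0.000253) and rho −0.979 (permutation p of 2e-05). For cytochrome c oxidase, or complex IV, with 9 of 10 genes, r was −0.856 (permutation p of 0.00045, adjusted to 0.00214) and rho −0.874 (permutation p of 0.00038). Leaving out the 2 farthest libraries gave r of −0.942, −0.903, −0.881 and −0.807 in the order of these sentences. The lists and the 37 share the library and its depth. Among 11896 single genes with a symbol, 652 had r below −0.9 with the same ratio, so an r this low was not particular to the complexes.

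The same 4 relations had the same sign inside each breed. Within Gir r was −0.847, −0.825, −0.893 and −0.789 for complexes I, III, IV and V (exact permutation p = 0.0403, 0.0375, 0.0236 and 0.0583, adjusted p = 0.185 for each). Within Shweta Kapila r was −0.973, −0.981, −0.940 and −0.956 (exact permutation p = 0.00556, 0.00417, 0.0597 and 0.0181, adjusted p = 0.0528, 0.0528, 0.189 and 0.114). Without the 3 libraries of over 22 M counts r was −0.951, −0.931, −0.950 and −0.930 over the 9 that remained (exact permutation p = 0.000118, 0.000207, 0.000135 and 0.000107). This choice was made after seeing the data, and its p-values were not adjusted. Complex II, measured by SDHB and SDHC of its 4 subunits, did not pass (r = −0.314, permutation p of 0.32; rho = −0.182, permutation p of 0.573), with r = 0.687 within Gir and −0.453 within Shweta Kapila.

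**Figure D5:**
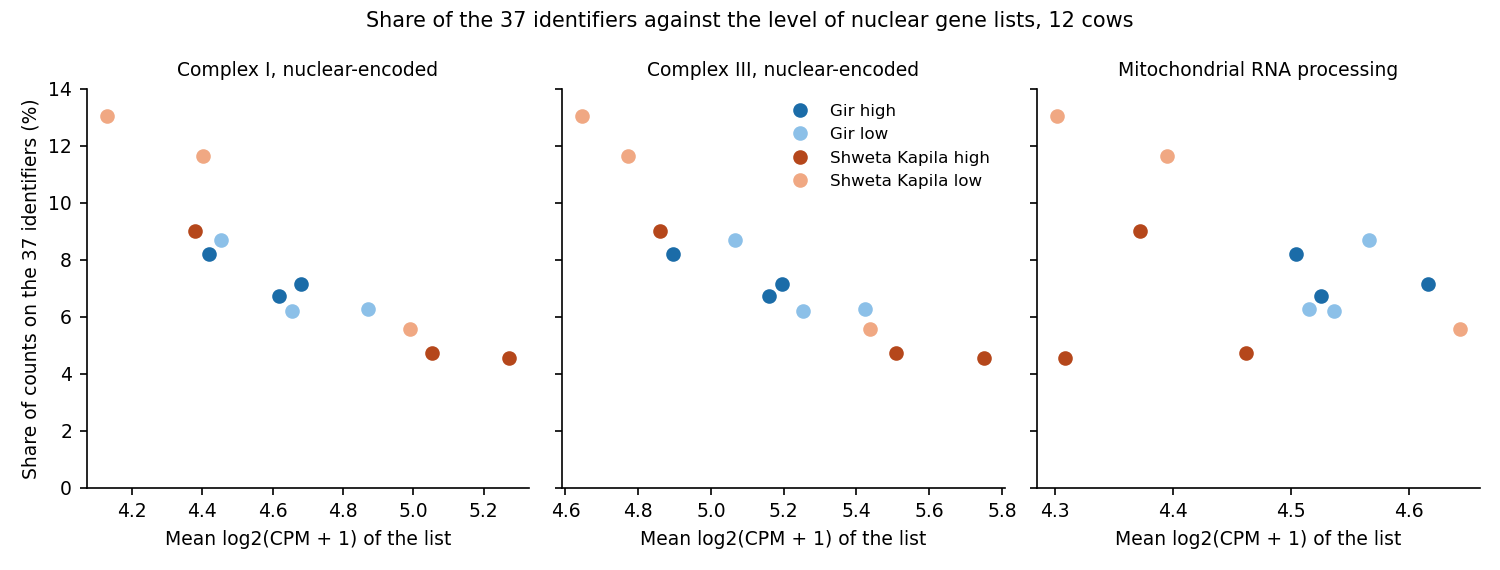
Share of counts on the 37 identifiers (vertical axis, %) against the mean log2(CPM + 1) of 3 nuclear gene lists (horizontal axes), 1 point per cow. The share falls from 13.1% to 4.54% as the complex I and complex III lists rise, with r of −0.939 and −0.960 on the log2 ratio scale, and r is −0.313 for mitochondrial RNA processing genes.

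Over the 12 cows, genes that make, cut or use mitochondrial RNA gave r closer to 0. The replication and copy number list (13 of 14 genes, among them POLG, the mitochondrial DNA polymerase) had r = −0.760 (permutation p of 0.00431, adjusted to 0.0164) and rho = −0.650 (permutation p of 0.0255), but r was −0.423 without the 2 farthest libraries and −0.242 without the 3 largest. The transcription list (9 of 9, with the promoter-binding factor TFAM and the polymerase POLRMT) had r = 0.607 (permutation p of 0.035, adjusted to 0.0831) and rho = 0.559. The RNA processing list (26 of 27) had r = −0.313 (permutation p of 0.319) and rho = −0.273. Mitochondrial aminoacyl-tRNA synthetases (15 of 17), which charge the organelle's transfer RNAs, had r = −0.641 (permutation p of 0.0252, adjusted to 0.0684) and rho = −0.497, and r was −0.0509 without the 2 farthest. Biogenesis regulators (8 of 9) were at r = −0.0101 and rho = −0.329, and mitophagy genes (9 of 10) at −0.0185 and 0.105. Within Shweta Kapila r was −0.852 for the replication and for the synthetase list (exact permutation p = 0.0431, adjusted p = 0.164 for each). Within Gir these lists were at −0.302 and 0.381.

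edgeR's quasi-likelihood test called 0 genes of these 11 nuclear lists in any comparison, as it called 0% of all genes. With high yield in Shweta Kapila 28 of the 32 complex I genes were fitted higher (median log2 fold change 0.49), as were 6 of 9 of complex III (0.64), 6 of 9 of complex IV (0.49) and 13 of 16 of ATP synthase (0.35), beside −0.02 over all genes. In Gir the medians were −0.08, −0.12, −0.13 and −0.05. The accessory subunit gene NDUFB1 was at 1.22 ± 0.50 in Shweta Kapila (SE; edgeR adjusted p = 0.655) and at −0.61 ± 0.50 in Gir (edgeR adjusted p = 1). In the same 2 comparisons UQCRH, the hinge protein of complex III, was at 0.93 ± 0.41 and −0.65 ± 0.41. Of the RNA-handling genes, PTCD3, a mitochondrial ribosomal protein of the pentatricopeptide family, was at −0.77 ± 0.25 in Shweta Kapila (edgeR adjusted p = 0.636), and MYC, in the list of biogenesis regulators, was at −0.80 ± 0.23 (edgeR adjusted p = 0.575). The gene of next lowest p in each of these 2 lists went the other way. NSUN4 was at 0.53 ± 0.24 and ESRRA at 1.12 ± 0.56 (edgeR adjusted p = 0.655 for each). Between breeds NDUFS4 was at −1.04 ± 0.26 in Gir against Shweta Kapila (edgeR adjusted p = 0.279). Medians of the transcription, replication, RNA processing, synthetase, biogenesis and mitophagy lists lay between −0.24 and 0.13 for yield in Shweta Kapila and between −0.10 and 0.07 in Gir.

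No list of blood cell markers passed the test against the 37 over all 12 cows. Pearson r was −0.0947 for B cells (9 of 11 markers measured), −0.406 for T cells (13 of 13), −0.554 for NK and cytotoxic cells (9 of 12), 0.192 for monocytes (6 of 10), −0.369 for neutrophils (9 of 16), −0.280 for platelets (9 of 12) and −0.360 for erythroid cells (8 of 15). Spearman's coefficient ran from −0.455 to 0.273, and the adjusted permutation p of r was at least 0.128. Within Gir the T cell and NK lists were at r = −0.880 and −0.841 (exact permutation p = 0.0292 and 0.05, adjusted p = 0.185 each). Without the 3 libraries of over 22 M counts T cells were at −0.760, NK cells at −0.885 and monocytes at 0.732 (exact permutation p = 0.0206, 0.00248 and 0.0251, not adjusted). Those 3 libraries hold the highest shares and were left out after seeing the data, so these values only describe the cows that remained.

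In Shweta Kapila the NK, T cell and erythroid sums did not overlap between yield classes, and the B cell sum did. Of all single genes tested, 6.7% did not overlap between yield classes in Shweta Kapila and 10.5% in Gir. That is not a like background for the sums. Single genes were taken in CPM per deposited total, and the sums add all matched markers of a list in CPM over counts outside the 37. The erythroid sum takes in 11 matched markers, of which 8 passed the filter. edgeR called 0 markers of the 7 cell type lists. Summed NK and cytotoxic markers were at 1507 to 3864 CPM with high and 881 to 1021 CPM with low yield, and T cell markers at 4971 to 5874 against 3068 to 4225 CPM. B cell markers were at 856 to 1027 against 789 to 3592 CPM, with 9 of 9 fitted lower with high yield (median log2 fold change −1.02). In the same comparison 8 of 9 NK markers were fitted higher (median 1.66), as were 10 of 13 T cell markers (0.67) and 6 of 8 erythroid markers (0.60). In Gir the NK sum was at 487 to 915 CPM in high-yielding and 597 to 1135 CPM in low-yielding animals, and the T cell sum at 3188 to 3792 and 2975 to 4760 CPM. Erythroid markers in Shweta Kapila were at 288 to 373 CPM with high and 216 to 239 CPM with low yield, and overlapped in Gir. In Gir the monocyte sum was at 534 to 744 CPM with high and 312 to 507 CPM with low yield. The neutrophil sum there was at 3090 to 4704 against 2417 to 3080 CPM. Neither overlapped in Gir, and both overlapped in Shweta Kapila. Over the 4 groups neutrophil markers summed to between 1493 and 4704 CPM and platelet markers to between 293 and 776 CPM. None of the matched markers was at 0 in all libraries. The part of blood cell make-up in the level of the 37 identifiers was not tested.

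The nuclear genes most like the summed 37 were picked by Pearson r over the 12 cows among 11896 genes with a symbol, as a description. Of these 195 had r above 0.9 and 652 below −0.9. Highest were SOS1, a Ras exchange factor (r = 0.983), GSPT1, a translation release factor (0.980), CDC5L, a spliceosome component (0.979), PPP2R2A, a regulatory subunit of protein phosphatase 2A (0.976), and AFTPH, a clathrin accessory protein (0.974). Among the lowest were CARD19 (r = −0.994), TBC1D10C, a GTPase-activating protein of lymphocytes (−0.992), the ribosomal protein gene RPL13A (−0.990) and ABTB1 (−0.987). CARD19 ran from 3.95 to 35.4 CPM over the 12 cows, RPL13A from 363 to 1803 CPM and SOS1 from 21.7 to 64.9 CPM.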

How the data were processed

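The authors deposited expected counts per gene, 1 column a cow, and the totals differ between columns. Per the submitters' processing notes, Trimmomatic and FastQC were used (no version stated). Not given in the sources used here are the aligner, counting program, strand setting, genome build and annotation. All value columns were used. Totals ran from 14.2 to 27.2 mega-counts (M), so 10 counts equal 0.704 to 0.368 CPM.

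Counts were rounded and fitted in R 4.3.3 with edgeR 4.0.16: filterByExpr (minimum count 10, minimum total 15), which left 15420 genes, TMM scaling, and a robust quasi-likelihood fit with 4 group means over 12 libraries, so that groups share an estimate of the spread, with Benjamini-Hochberg adjustment over all genes (threshold 0.05). DESeq2 1.42.0 and limma 3.58.1 were alternatives. The fit was tested on simulated data. CPM in the text is per deposited total, except in the means and sums of the nuclear gene and cell marker lists. Those take CPM over the counts outside the short identifiers. Exact permutation used all splits of the cows (labels permuted within breed where a yield comparison takes in both breeds); correlations used 100000 permutations, or all orders for 6 or 9 cows. Python 3.11.15, NumPy 2.4.6, pandas 2.3.3, SciPy 1.17.1 and matplotlib 3.10.9 were used. RefSeq symbols come from the assembly NIAB-ARS_B.indTharparkar_mat_pri_1.0.

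Identifiers and 18 lists were chosen with earlier results of these data known. Named were the 5 most abundant 7-digit and 3 most abundant 8-digit identifiers, the lowest p on each side of a comparison, at most 2 genes of lowest p a nuclear list, and the 5 genes of highest and of lowest r (1 is not reported here); other identifiers were named after their values were seen.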

Additional observations from a re-analysis of the deposited data

How the results depend on the processing

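The count of identifiers called, 0 in each comparison, was the same with DESeq2 size factors, scaling from genes outside the 37, no filter, DESeq2, a log2 total count covariate and each cow left out (range 0 to 0). Fits of the compared groups alone, made for yield in Gir and in Shweta Kapila, also called 0. It moved with limma-voom weights to 13 for yield in Shweta Kapila, 4 over both breeds, 10 for the difference between breeds and 1 between breeds, and to 1 between breeds without the 3 libraries of over 22 M counts, an alternative chosen after seeing the data, in which low-yielding Shweta Kapila is 1 cow. The labels do not say that the replicate number pairs the cows. Deviations from group means correlated above 0.1 in 3 of 18 pairs of same-numbered cows and in 11 of 36 pairs of differently numbered cows. Such correlations cannot exclude a pairing, since each deviation is taken from a mean of 3 cows. With the replicate block 0 identifiers were called in each comparison, and the share differences were 0.312 in Gir and −4.01 in Shweta Kapila, as without it (exact sign-flip p = 0.5 for each).

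The yield difference of the share in Gir turned to −0.0646 percentage points with the 8-digit class alone and ran from −0.117 to 1.13 with a cow left out. In Shweta Kapila it ran from −6.27 to −2.53, over both breeds from −2.98 to −1.11, for the difference between breeds from 2.84 to 6.58 and between breeds from −1.59 to 0.114 (turned without Shweta Kapila low 1, and at 2.27 without the 3 largest libraries). With a cow left out the class ratio difference ran from −0.134 to 0.151 in Shweta Kapila, from −0.560 to −0.191 in Gir, from −0.280 to −0.0873 over both breeds, from −0.579 to −0.208 for the difference between breeds and from −0.282 to −0.0761 between breeds, where the value nearest 0 in each of the last 4 is that without Gir high 3. Identifier 2885978 in Shweta Kapila turned to −0.27 with limma-voom and ran from −0.10 to 0.34 with a cow left out. The causes were not tested.

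Without the 3 largest libraries the relation with library size fell to r = 0.359, that of the transcription list to 0.416 and that of the replication list to −0.242. T cells became −0.760, NK cells −0.885 and monocytes 0.732. Those of complex II (0.511), RNA processing (0.538), synthetases (0.537), biogenesis (0.378), B cells (0.560), neutrophils (0.495), platelets (0.169) and erythroid cells (0.0390) turned. The other 5 relations kept sign and side. At this depth 20 of the 37 identifiers had 6 counts or fewer in every library, and no difference in them was detectable.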
